A study of Mus musculus with 9 samples.

Results

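The tumor suppressor p53 and the genes around it were followed as a set of 10 named genes among the 54347 genes listed in the deposited table. The set holds Trp53, the gene for p53; its relative Trp73; the inhibitors Mdm2 and Mdm4; and the target genes Ccng1, Bax, Bbc3, Pmaip1, Zmat3 and Eda2r. They were taken by symbol because of their place in the pathway. Of the 10, 9 passed the filter on low values (at least 1 CPM in at least 3 libraries) that 15532 genes passed in all, and Trp73 did not.

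RNA from 6 pancreatic neuroendocrine tumors (PanNETs) of INS-p25OE mice and from 3 samples of normal islets was sequenced, 1 library each. INS-p25OE mice carry 2 transgenes, Ins2-rtTA and tetOp-p25GFP, so that doxycycline in the drinking water, from weaning at 3 to 4 weeks of age, switches on p25, an activator of the kinase Cdk5, in cells that use the insulin promoter. M1, M2 and M3 are functional tumors, whose titles carry a hormone label, and M4, M5 and M6 are non-functional tumors. M2 is from a female and the other tumors and the islets are from males. The islets (NI1, NI2 and NI3) are C57BL/6, the background of the transgenic line, and the study used littermates without the transgenes as its normal controls. The sources used here differ on the concentration of doxycycline, so none is printed. Age at collection and the number of animals behind an islet sample were not given in the sources used here. Levels are given as CPM, a gene's counts relative to the library's total after TMM scaling, which corrects for differences in library composition. The question the design poses is which genes of the pathway differ between tumors and normal islets, and between functional and non-functional tumors.

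p53 is a transcription factor that is kept scarce in unstressed cells. Mdm2 marks it for breakdown and Mdm4 binds it and holds its activity down, and because p53 itself switches on Mdm2 the pair forms a feedback loop. DNA damage or oncogenic signalling loosens that hold, and p53 then raises genes that stop the cell cycle, repair DNA or open mitochondria for apoptosis. Much of this control acts on the protein, so the level of Trp53 mRNA and the activity of p53 are separate quantities, and only mRNA was measured here.

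p53 binds DNA as a tetramer on a pair of 10-base half-sites, each made of 3 purines, C, A or T, A or T, G and 3 pyrimidines. The RefSeq promoter windows of GRCm38.p6, from 250 bases before to 50 bases after a transcript start, were searched for a half-site that matches this pattern at all 10 positions, which reads the same on both strands. The search is given for 8 of the 10 genes, without Zmat3 and Pmaip1, and 4 of the 8 contained a half-site in 1 window. Of all 27025 genes with a window, 9.55% contained one, and of all 32851 single windows, 8.36% did. The 80 bases around each are shown to place the half-site, in capitals, in the promoters of p53 itself, its main inhibitor and 2 of its targets. The windows lie at chr11:69580249-69580328 on the plus strand for Trp53, and on the minus strand at chr10:117710900-117710979 for Mdm2, chr11:40755427-40755506 for Ccng1 and chr7:45467055-45467134 for Bax.
Trp53: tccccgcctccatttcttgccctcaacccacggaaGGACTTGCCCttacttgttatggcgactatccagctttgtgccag
Mdm2: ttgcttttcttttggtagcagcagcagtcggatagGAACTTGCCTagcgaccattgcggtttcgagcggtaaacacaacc
Ccng1: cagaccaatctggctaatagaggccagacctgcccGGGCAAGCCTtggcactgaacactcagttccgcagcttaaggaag
Bax: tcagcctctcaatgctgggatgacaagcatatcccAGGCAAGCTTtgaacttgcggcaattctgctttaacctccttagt
In Ccng1 and Bax a 10-base stretch next to the half-site, 0 or 1 base away, matched the same pattern at 9 of 10 positions, an arrangement held by 0.177% of all windows. The best neighbour matched at 5 positions in Mdm2 and 7 in Trp53. The half-site lay between 185 and 176 bases before the start in Ccng1, 201 and 192 in Bax, 186 and 177 in Mdm2, and 75 and 66 in Trp53. No perfect half-site was found in the windows of Eda2r, Mdm4, Bbc3 and Trp73. A match is a description of the letters and no measure of binding, and sites outside these windows were not searched.

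One library went against its label in part and is described before the results. Cdk5r1 encodes p35, from which p25 is cut, and reads from the p25 transgene could count toward it. Cdk5r1 stood at 149 to 400 CPM in the 6 tumors and at 18.3 and 12.5 CPM in NI2 and NI3, but at 279 CPM in the library labelled NI1. Over the tested genes NI1 was nearest to M6, with a root mean square difference of 0.318 in log2(CPM + 1), the smallest of all 36 pairs of libraries, against 0.482 for NI2 and NI3. The 2 libraries differed by more than counting noise, which 2 preparations of 1 sample could also do. By some marker sums NI1 lay with the islets. Its acinar markers summed to 281 CPM, beside 0.764 to 184 in tumors. Genes known to respond to tissue dissociation summed to 807 CPM in NI1, beside 213 to 265 in tumors. By other sums NI1 lay beside M6 and apart from NI2 and NI3. Beta cell markers summed to 120900 CPM in NI1, 115800 in M6, 325100 in NI2 and 360600 in NI3. Neuroendocrine markers summed to 18190 CPM in NI1, 18650 in M6, 35240 in NI2 and 36970 in NI3. NI1 and M6 were counted as separate samples, as labelled. Totals ran from 36468280 to 63637175 counts, so 3 counts correspond to between 0.0424 and 0.119 CPM. Mitochondrial genes took 32.12% of the counts in M4 and 1.76 to 8.41% elsewhere. Beta cell markers were present in all libraries, at summed levels of 17910 to 89340 CPM in functional tumors, 63490 to 115800 in non-functional tumors and 120900 to 360600 in islets. For the 9 tested members, tumors against islets are therefore given with all 9 libraries and also without both M6 and NI1.

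Over the 10 genes themselves M6 and NI1 lay close together. Their root mean square difference was 0.369 in log2(CPM + 1), while NI1 differed from the other 5 tumors by 1.00 to 1.43. NI1 differed from NI2 by 0.50 and from NI3 by 0.575 over the same genes. M6 was the lowest of the 6 tumors in 7 of the 10 genes (Mdm4, Ccng1, Bax, Bbc3, Pmaip1, Zmat3 and Eda2r), and of all tested genes 14% had M6 lowest.

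**Figure D1:**
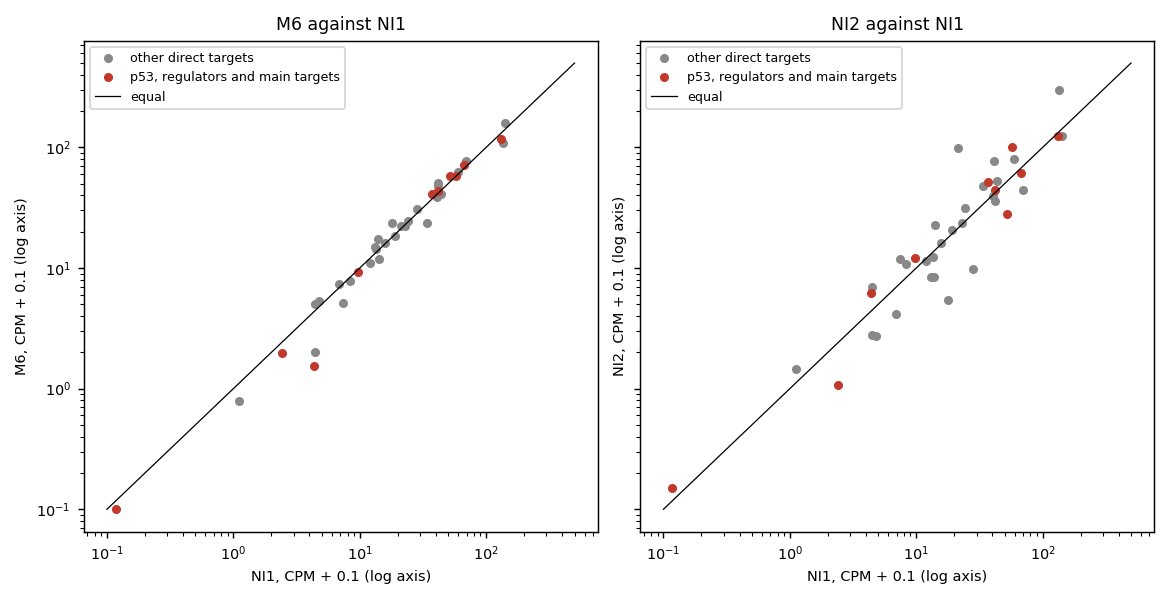
Levels of the 10 p53 pathway genes (red) and of 28 other direct p53 targets (gray) in the library labelled NI1 (x axis) against M6 (left) and NI2 (right), in CPM + 0.1 on log axes, with the line of equal levels. The points lie nearer the line for M6, where the root mean square difference of the 10 genes was 0.369 in log2(CPM + 1), than for NI2, where it was 0.50.

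Among the members, Eda2r, Zmat3 and Ccng1 showed the largest differences between tumors and islets, at log2 fold changes of 3.85, 0.79 and 1.07. None passed the adjusted threshold of edgeR's test, the main one, with all 9 libraries. Eda2r passed it once NI1, M6 or both were left out, and passed that of DESeq2 with all 9. Trp53 itself differed by 0.43 on the log2 scale, and Mdm2 by 0.34. The genes of the apoptotic machinery, Bax, Bbc3 and Pmaip1, did not pass edgeR's test with all 9 libraries either, like every other member. Between functional and non-functional tumors edgeR called 0 of all 15532 tested genes.

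Trp53 (ENSMUSG00000059552, chr11:69580359-69591873, plus strand) was measured at 58.3, 40.1 and 49.3 CPM in M1, M2 and M3. It stood at 43.5, 53.1 and 58.0 CPM in M4, M5 and M6. The islet libraries held 52.1 CPM in NI1, 27.7 in NI2 and 32.3 in NI3. Functional and non-functional tumors overlapped, and NI1 lay among the tumors while NI2 and NI3 lay below all 6. For tumors against islets the log2 fold change was 0.43 (SE, standard error, 0.23, with an adjusted p = 0.321 by the quasi-likelihood test of edgeR). Without NI1 it was 0.75 (adjusted p = 0.0625), and without both NI1 and M6 it was 0.70 (adjusted p = 0.0889), so the call was not made by edgeR in any of the 3 fits.

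Trp73 (ENSMUSG00000029026, chr4:154056253-154140208, minus strand) encodes p73, a relative of p53 that can bind the same sites. It was close to undetected, with 125 counts (1.77 CPM) in M2, 7, 5 and 7 counts in M1, M3 and M5, and 0 in M4 and M6. NI1 held 1 count, NI2 held 2 and NI3 held 0. A count of 0 allows up to 0.119 CPM in M4, 0.0527 in M6 and 0.0742 in NI3. M2 was the only library above 10 counts. The exons of Trp73 share 280 bases (5.1% of their length) with the antisense gene Trp73os, and the kit does not mark strand, so reads there cannot be told apart. The other relative, Trp63, stayed at or below 0.173 CPM in all libraries.

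Mdm2 (ENSMUSG00000020184, chr10:117688875-117710758, minus strand), the ubiquitin ligase for p53, stood at 91.8, 93.7 and 77.1 CPM in M1 to M3. It stood at 68.5, 63.5 and 70.7 CPM in M4 to M6. The islets held 66.8, 60.7 and 56.7 CPM in the order NI1 to NI3. All functional tumors lay above all non-functional tumors, which overlapped the islets. In tumors against islets the log2 fold change was 0.34 (SE 0.17, adjusted p = 0.306 by edgeR), and 0.42 without M6 and NI1 (adjusted p = 0.261). In functional against non-functional tumors it was 0.37 (SE 0.16, adjusted p = 0.48 by edgeR).

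Mdm4 (ENSMUSG00000054387, chr1:132959484-133030561, minus strand), the partner of Mdm2 that binds p53 and holds its activity down, showed the same order of tumor groups. Its levels were 177, 202 and 192 CPM in M1 to M3. They were 117, 135 and 117 CPM in M4 to M6. The islets held 131, 124 and 63.7 CPM. NI3 was the lowest library and the other islets fell within the non-functional range. The log2 fold change was 0.56 in tumors against islets (adjusted p = 0.299) and 0.63 in functional against non-functional tumors (SE 0.26, adjusted p = 0.48), both by edgeR. Without M6 and NI1 the first was 0.81 (adjusted p = 0.161).

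**Figure D2:**
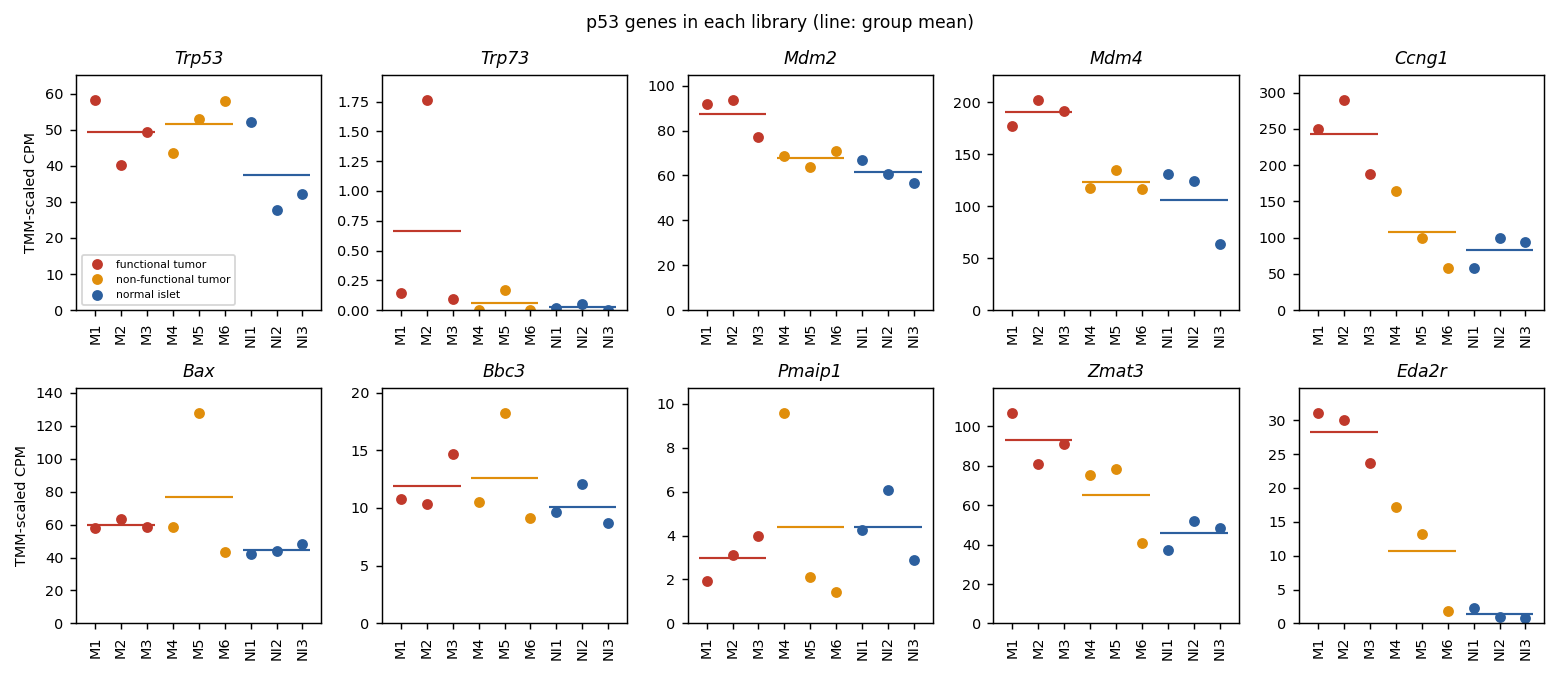
Levels of the 10 genes in each of the 9 libraries, in TMM-scaled CPM on linear axes that start at 0, with 1 point per library, colored by group, and a line at the group mean. Eda2r stands at 13.2 CPM or more in M1 to M5 and at 2.31 CPM or less in M6 and the islets, while Trp53 in NI1, at 52.1 CPM, falls among the tumors.

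Ccng1 (ENSMUSG00000020326, chr11:40748552-40755311, minus strand) encodes cyclin G1, a p53 target that acts back on Mdm2 through a phosphatase. It stood at 250, 290 and 188 CPM in M1 to M3. It stood at 165, 99.5 and 58.0 CPM in M4 to M6, and at 57.4, 99.9 and 93.4 CPM in NI1 to NI3. The functional tumors lay above every other library, and M6 lay with NI1 at the bottom. Functional tumors averaged 243 ± 51.6 CPM and non-functional tumors 107 ± 53.8 (SD, n = 3 each). This was a log2 fold change of 1.18 (SE 0.38, adjusted p = 0.455 by edgeR), and 0.88 without M6 (adjusted p = 0.303). In tumors against islets the log2 fold change was 1.07 (SE 0.46, adjusted p = 0.24), and 1.03 without M6 and NI1 (adjusted p = 0.135).

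Zmat3 (ENSMUSG00000027663, chr3:32334792-32366014, minus strand) encodes an RNA-binding zinc finger protein. It was measured at 107, 81.2 and 90.9 CPM in M1 to M3 and at 75.4, 78.6 and 40.9 CPM in M4 to M6. The islets held 37.0, 52.0 and 48.3 CPM. M1 to M5 all stood above the islets and M6 stood inside the islet range. For tumors against islets the log2 fold change was 0.79 (SE 0.27, adjusted p = 0.179 by edgeR). It was 0.92 without M6 (adjusted p = 0.0537), 0.65 without NI1 (adjusted p = 0.222) and 0.79 without both (adjusted p = 0.0543).

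Eda2r (ENSMUSG00000034457, chrX:97333840-97377216, minus strand) encodes a receptor of the tumor necrosis factor family that binds the ligand ectodysplasin A2. M1, M2 and M3 held 31.1, 30.1 and 23.7 CPM. M4 and M5 held 17.2 and 13.2 CPM, and M6 held 1.86. The islets held 2.31, 0.974 and 0.742 CPM in NI1, NI2 and NI3. M1 to M5 thus lay far above the islets, and M6 lay below NI1. For tumors against islets the log2 fold change was 3.85 (SE 0.84, adjusted p = 0.126 by edgeR) with all 9 libraries. Without NI1 Eda2r rose by 4.50 (adjusted p = 0.0303), without M6 by 4.09 (adjusted p = 0.0128), and without both by 4.74 (SE 0.50, adjusted p = 0.00374), all by edgeR. DESeq2 called Eda2r with all 9 libraries at the same log2 fold change, 3.85 (adjusted p = 2.76e-06). Between functional and non-functional tumors the log2 fold change was 1.4 (SE 0.70, adjusted p = 0.517) and 0.90 without M6 (adjusted p = 0.415).

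Bax (ENSMUSG00000003873, chr7:45461697-45466898, minus strand) forms pores in the outer mitochondrial membrane. It stood at 57.9, 63.2 and 58.4 CPM in M1 to M3, at 58.4, 128 and 43.6 CPM in M4 to M6, and at 41.9, 44.2 and 48.4 CPM in the islets. M5 stood apart and M6 lay among the islets. For tumors against islets the log2 fold change was 0.61 (SE 0.31, adjusted p = 0.304 by edgeR), and 0.66 without M6 and NI1 (adjusted p = 0.275). Bax shares 192 exon bases (12.2% of its exons) with the gene Gm45808, whose median level was 0 CPM.

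Bbc3 (ENSMUSG00000002083, chr7:16308393-16318205, plus strand) encodes Puma, a protein that binds and disarms the survival members of the BCL-2 family. It ranged from 9.10 CPM in M6 to 18.2 CPM in M5 among tumors and from 8.66 to 12.1 CPM in islets, with the groups overlapping. For tumors against islets its log2 fold change was 0.28 (SE 0.28, adjusted p = 0.607 by edgeR), and 0.31 without M6 and NI1 (adjusted p = 0.599). Pmaip1 (ENSMUSG00000024521, chr18:66458533-66465565, plus strand) encodes Noxa, a protein of the same class. It was scarce, at 1.91, 3.12 and 3.96 CPM in M1 to M3, 9.57, 2.11 and 1.44 CPM in M4 to M6, and 4.26, 6.06 and 2.87 CPM in the islets. M4 stood apart, and the groups overlapped. Pmaip1 had a log2 fold change of -0.26 (SE 0.60, adjusted p = 0.842), the only tested member of the set with a value below 0, and -0.12 without M6 and NI1 (adjusted p = 0.936).

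Levels can be compared between genes per kilobase of exon, though only roughly. The length takes in every annotated exon, used or not (14.798 kb in Mdm4 and 4.045 kb in Trp53). Genes with many or long exons can therefore come out lower on this scale. On that scale Ccng1, at 49.9 CPM per kilobase, and Bax, at 43.3, were the highest of the 10 in the mean of the tumors, followed by Mdm2 at 15.3, Trp53 at 12.5 and Mdm4 at 10.6. Zmat3 (6.91), Bbc3 (5.77), Eda2r (3.31), Pmaip1 (1.35) and Trp73 (0.0653) were lower. In the mean of the islets Bax led at 28.4 CPM per kilobase and Ccng1 followed at 23.8. Eda2r held 0.228 there, below Pmaip1 at 1.61, so its place in the order was 1 step lower than in tumors.

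Counted together for tumors against islets, 0 of the 9 tested members passed an adjusted p under 0.05 by edgeR, as 0.258% of all tested genes did (40 genes, each lower in tumors). At an unadjusted p under 0.05, 3 of 9 were higher in tumors (Eda2r, Zmat3 and Ccng1) beside 10.7% of all tested genes. DESeq2 called 1 of 9, Eda2r, beside 4.92% of genes called higher. Without NI1, edgeR called Eda2r alone among the 9, beside 5.34% of all genes tested called higher, and without both NI1 and M6 it again called only Eda2r beside 5.89%. DESeq2 without both libraries called 4 members higher, Trp53, Ccng1, Zmat3 and Eda2r, beside 12.5% of all genes tested. The median log2 fold change of the 9 members was 0.56 with all libraries and 0.03 for all tested genes. No member had all 6 tumors above all 3 islet libraries, beside 4.50% of tested genes, whereas Trp53, Mdm2, Bax, Zmat3 and Eda2r had M1 to M5 above both NI2 and NI3, beside 19.0%. Macrophage markers moved with this comparison, with 7 of 7 higher in tumors at an unadjusted p under 0.05 and summed levels of 414 to 1141 CPM in tumors and 173 to 387 in islets. Fibroblast markers summed to 104 to 2055 CPM in tumors and 122 to 189 in islets, and acinar markers to 0.764 to 184 CPM in tumors and 281 to 5140 in islets. A panel of genes known to respond to tissue dissociation summed to 213 to 265 CPM in tumors and 807 to 3117 in islets. The part of these cells or of handling in the p53 results was not tested, and in bulk RNA fewer cells of a type and less RNA per cell cannot be told apart.

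**Figure D3:**
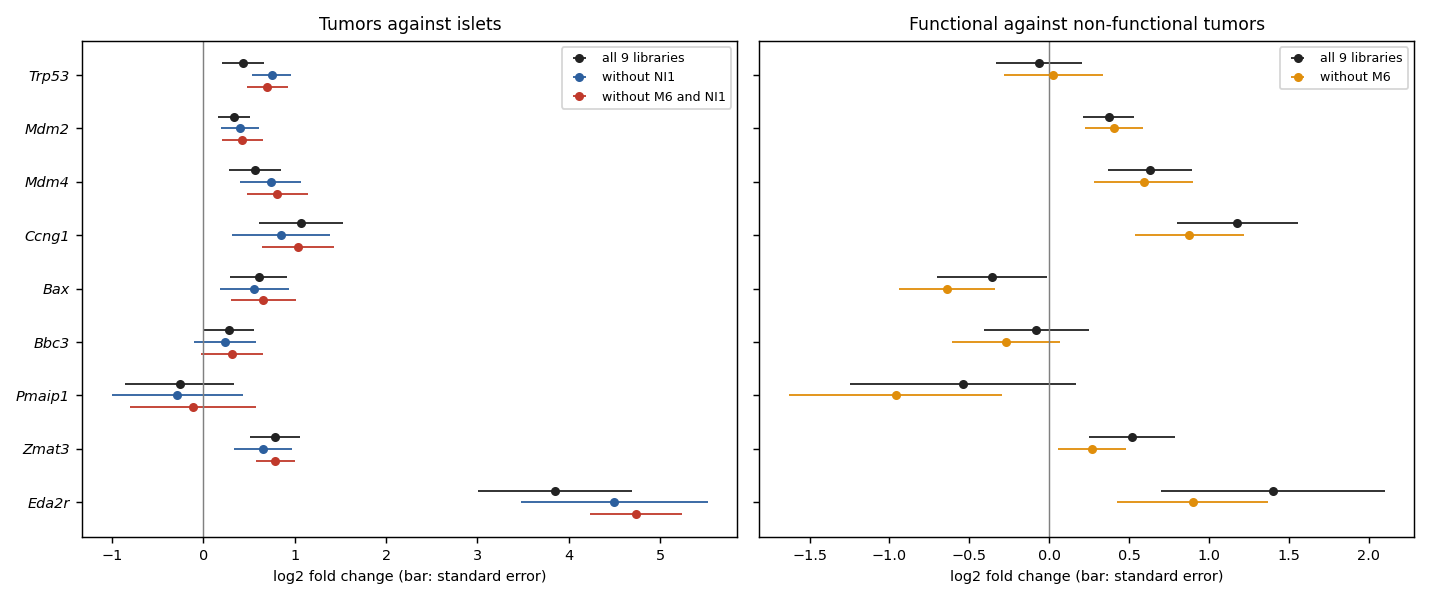
Log2 fold changes with standard errors from edgeR for the 9 tested members, in tumors against islets (left; all 9 libraries, without NI1, and without M6 and NI1) and in functional against non-functional tumors (right; all 9 libraries and without M6). Eda2r is the farthest from 0 on the left, at 3.85, 4.50 and 4.74, and Ccng1 and Eda2r are the farthest above 0 on the right, at 1.18 and 1.4.

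Between functional and non-functional tumors, Mdm2, Mdm4, Ccng1, Zmat3 and Eda2r had all 3 functional tumors above all 3 non-functional ones. This was 5 of 9 tested members, beside 8.77% of all tested genes. That these 5 also lay above M4 and M5 alone follows from the first rule and is no check on M6. With M6 left out no other member joined them, while 17.2% of all tested genes had the groups apart. Trp53, Bax, Bbc3 and Pmaip1 overlapped between the groups, with log2 fold changes of -0.07, -0.36, -0.08 and -0.54. At an unadjusted p under 0.05, 3 of 9 members were higher in functional tumors (Ccng1, Mdm4 and Mdm2), beside 4.71% of genes. Without M6 this held for 1 of 9, Ccng1, beside 6.92%. By adjusted p, edgeR called 0 members and 0% of all genes, and DESeq2 called 111 genes and 0 members. Acinar markers moved with this comparison as well, at summed levels of 0.764 to 1.05 CPM in functional and 20.0 to 184 CPM in non-functional tumors. Ptf1a and Rbpjl, acinar transcription factors, were at 0 in some libraries and failed the filter. The part of acinar RNA in these differences was not tested, nor was that of the mitochondrial share of M4.

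Outside the 10 genes, 28 other direct targets of p53 were all tested. With all 9 libraries DESeq2 called 4 of them higher in tumors and 2 lower, beside 764 higher and 488 lower of all 15532 tested genes. By edgeR 0 of the 28 were called. Below an unadjusted p of 0.05, 8 were higher and 3 lower in tumors, beside 10.7% higher and 9.14% lower of all tested genes, and the median log2 fold change was 0.57. Cdkn1a, the gene for the cell cycle inhibitor p21, stood at 143, 262 and 138 CPM in M1 to M3 and at 122, 160 and 51.0 CPM in M4 to M6. The islets held 41.5, 35.5 and 33.1 CPM, below all 6 tumors, and M6 was the lowest tumor. Its log2 fold change was 1.99 (SE 0.42, adjusted p = 0.119 by edgeR), and without M6 and NI1 it rose by 2.26 (adjusted p = 0.00983). Phlda3, which encodes a repressor of the kinase Akt, stood at 34.0, 34.7 and 34.1 CPM in M1 to M3 and at 37.9, 45.4 and 14.8 CPM in M4 to M6. In the islets it held 13.1, 8.28 and 5.05 CPM, again with M6 nearest to NI1. Its log2 fold change was 1.92 (adjusted p = 0.107) and, without M6 and NI1, 2.48 (adjusted p = 0.00483), both by edgeR.

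Cdkn1a, Phlda3, Pidd1 and Gtse1 were the 4 other direct targets with every tumor above every islet library, beside 4.50% of all tested genes. Without M6 and NI1 edgeR called 7 of the 28. Of these, 5 (Cdkn1a, Ddb2, Gtse1, Phlda3 and Pidd1) were higher in tumors, beside 5.89% of all genes tested, and 2 (Btg2 and Ddit4) were lower, beside 3.43%. Pidd1, which encodes a death domain protein, rose by 2.79 on the log2 scale (adjusted p = 0.00478), and Gtse1, which encodes a protein that binds p53 in the cell cycle, rose by 2.58 (adjusted p = 0.015). Btg2, a growth-restraining gene, held 61.5 to 108 CPM in tumors and 136, 300 and 203 CPM in NI1, NI2 and NI3. With all 9 libraries its log2 fold change was -1.38 (SE 0.26, adjusted p = 0.0726 by edgeR). Btg2 is also 1 of the 15 genes of the dissociation panel. With all libraries edgeR called 10 of the 15 lower in tumors, beside 0.258% of all tested genes. Gdf15, a secreted stress cytokine, stood at 0.48 to 1.83 CPM in 5 tumors, at 6.28 CPM in M5 and at 1.01 to 1.36 CPM in islets (log2 fold change 0.79, adjusted p = 0.597 by edgeR).

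**Figure D4:**
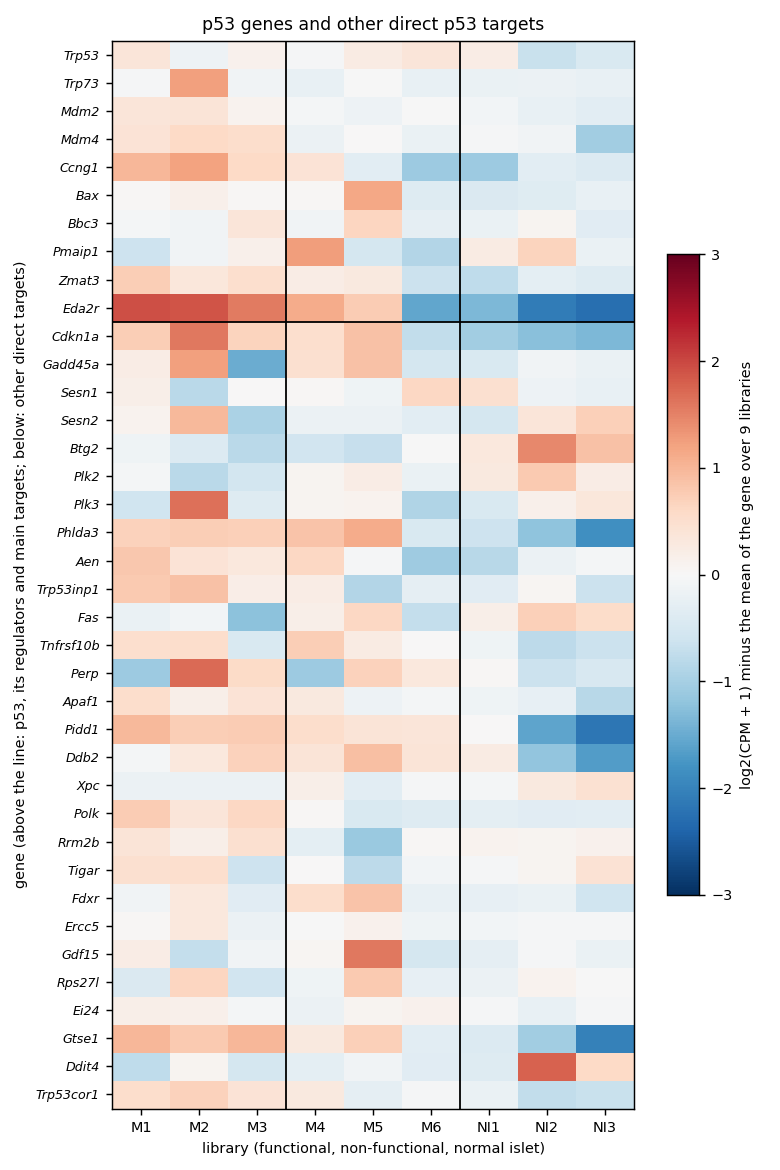
Log2(CPM + 1) of the 10 genes (above the black line) and 28 other direct p53 targets (below it) in each library, minus the mean of that gene over the 9 libraries, red above and blue below it. Eda2r, Cdkn1a and Phlda3 are above their means in M1 to M5 and below them in M6, NI1, NI2 and NI3, and Btg2 is highest in NI2.

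Of 19 other regulators and relatives of p53, 18 were tested (Trp63 was not), with 6 higher and 0 lower below an unadjusted p of 0.05 (10.7% and 9.14% of all tested genes) and a median log2 fold change of 0.49. Cdkn2a encodes p16Ink4a and, in another reading frame, p19Arf, which holds Mdm2 back, and the gene counts do not separate them. It stood at 34.5, 6.77 and 54.5 CPM in M1 to M3, at 29.7, 63.5 and 11.9 CPM in M4 to M6, and at 11.6, 0.901 and 0.544 CPM in NI1, NI2 and NI3. NI1 lay among the tumors and the other islets below them. The log2 fold change was 2.94 (SE 1.08, adjusted p = 0.191 by edgeR) with all libraries, and Cdkn2a rose by 5.53 without NI1 (adjusted p = 0.0163). Chek2, a kinase that phosphorylates p53 after DNA damage, ranged from 4.71 to 12.3 CPM in tumors and was 5.73, 2.63 and 1.44 CPM in the islets. Its log2 fold change was 1.56 (adjusted p = 0.162), and it rose by 2.25 without NI1 (adjusted p = 0.0265), by edgeR. Ppm1d, a phosphatase that switches p53 signalling off and is itself a p53 target, ranged from 25.8 to 39.0 CPM in tumors and from 19.5 to 29.6 CPM in islets (log2 fold change 0.44, adjusted p = 0.276 by edgeR). Rpl5, whose protein can bind Mdm2, had a log2 fold change of 0.74 (adjusted p = 0.21), and its counts are uncertain because ribosomal protein genes have near-identical processed copies.

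Of 18 genes of the BCL-2 family and the caspases, 17 were tested, with 4 higher and 2 lower below an unadjusted p of 0.05 (10.7% and 9.14% of all tested genes) and a median log2 fold change of 0.32. Bok, a BCL-2 relative that promotes cell death, ranged from 15.5 to 25.3 CPM in tumors and was 13.2, 4.92 and 5.52 CPM in the islets (log2 fold change 1.22, adjusted p = 0.152). Bcl2l2, a survival member of the family, ranged from 34.4 to 75.9 CPM in tumors and was 69.8, 108 and 101 CPM in the islets (log2 fold change -0.74, adjusted p = 0.168). Casp9, the caspase of the mitochondrial pathway, had a log2 fold change of 0.51 (adjusted p = 0.179). The genes that edgeR called without M6 and NI1 included Bok, which was higher in tumors, and Bcl2l2, which was lower.

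Among 12 cell cycle genes that p53 lowers through p21 and the DREAM repressor complex, all 12 were higher in tumors at an unadjusted p under 0.05, beside 10.7% of all tested genes, with a median log2 fold change of 1.74. With all 9 libraries edgeR called 0 of them, and DESeq2 called 11 higher, beside 4.92% of all tested genes. Top2a, a topoisomerase of dividing cells, stood at 314, 226 and 314 CPM in M1 to M3 and at 220, 225 and 104 CPM in M4 to M6. It stood at 97.7, 42.0 and 13.6 CPM in NI1, NI2 and NI3, so that M6 and NI1 again lay side by side between the groups. The log2 fold changes of Top2a, the mitotic kinase gene Aurkb and the anaphase regulator gene Cdc20 were 2.19, 2.15 and 1.70, with adjusted p of 0.148, 0.133 and 0.152 by edgeR. Without M6 and NI1, 11 of the 12 were called higher by edgeR, beside 5.89% of all genes tested, and Plk1 was the exception. In all 12, M1 to M5 stood above NI2 and NI3, beside 19.0% of all tested genes.

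The 3 tested genes nearest to Trp53 over the 9 libraries, by root mean square difference of log2(CPM + 1) centred on each gene, were 1600023N17Rik (0.10), 9430060I03Rik (0.131) and Prkce (0.142), a protein kinase C gene. The spread of Trp53 itself on that scale was 0.347. The first 2 of these had levels of 1.51 CPM or less, where adding 1 shrinks every difference. For Mdm2 the nearest were Tbk1 (0.074), Ift122 (0.076) and Slc35f6 (0.094), beside a spread of 0.233 for Mdm2 itself. Tbk1 stood at 42.8 to 47.1 CPM in functional tumors, 30.5 to 37.7 in non-functional tumors and 29.4 to 34.8 in islets. It shares the order of groups of Mdm2 because it was picked for its likeness to Mdm2 in these libraries.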

How the data were processed

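The authors trimmed single-end 75 bp reads with Trimmomatic 0.38 and quantified them with salmon 1.4.0 against mm10. The deposited values are salmon's estimated counts for each gene, in whole numbers and with totals that differ between libraries, although the table is called TPM. The step from transcripts to genes is not given in the sources used here. NI3 sums to exactly 50400000. Symbols and coordinates came from GENCODE mouse release 21 (GRCm38), which named 54094 of 54347 genes. The 253 left without a name made up 0.0121% of the total.

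The filter (1 CPM or more in 3 or more of 9 libraries) left 15532 genes. Testing used edgeR 4.0.16 (R 4.3.3), its quasi-likelihood F test and TMM scaling. The 6 tumors formed a single group against the 3 islet libraries, and the contrast of the tumor types came from a model with 3 groups. P-values were two-sided and adjusted by Benjamini-Hochberg over all tested genes, with a threshold of 0.05. They set the difference between groups against the spread between these libraries. The fits were tested on simulated data. There DESeq2 made more false calls than edgeR in both comparisons. Alternatives covered the filter, scaling, mitochondrial genes, DESeq2 1.42.0 (the study's tool), limma-voom 3.58.1, grouping, a replicate block and each library left out. Leaving out M6 and NI1 together was chosen after seeing the data.

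The members and gene lists were chosen with earlier results of these data known. Named outside the members were Cdkn1a, Cdkn2a, Ppm1d, Gdf15, Cdk5r1, the 3 genes of each pathway list with the smallest p in tumors against islets, the 3 nearest profiles, and list genes that a comparison called. Ddb2, Ddit4, Pidd1, Gtse1, Plk1, Ptf1a, Rbpjl and Trp63 were named after their values were seen where all 9 libraries did not call them. Called list genes outside the p53 pathway included Ms4a1, a lymphoid marker, and Dusp1, Egr1, Fos, Fosb, Hspa1a, Ier2, Jun, Junb, Nr4a1 and Zfp36 of the dissociation panel, all lower in tumors. Some called list genes are not reported here.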

Additional observations from a re-analysis of the deposited data

Results flagged for a closer look

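Among 14 genes compared over the 6 tumors (the 10 members and Cdkn1a, Cdkn2a, Ppm1d and Gdf15), 4 had 1 tumor far from the other 5. The gap of that tumor to its nearest neighbor was above 0.625 of the whole range. For normally distributed levels chance gives about 0.7 such genes. CPM on a linear scale need not be normal, and this was not tested, so an excess over chance is not shown. Trp73 stood at 1.77 CPM in M2, and the gap was 0.903 of the range. Bax stood at 127.7 CPM in M5, with a gap of 0.768 of the range. Gdf15 stood at 6.28 CPM in M5 as well, with a gap of 0.767. Pmaip1 stood at 9.57 CPM in M4, the library with 32.12% mitochondrial counts, with a gap of 0.691. The 3 tumors are of different kinds, since M2 is functional and the only one from a female while M4 and M5 are non-functional.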

How the results depend on the processing

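Directions of Trp53, Mdm2, Mdm4, Ccng1, Bax, Bbc3, Zmat3, Eda2r, Cdkn1a and Phlda3 in tumors against islets were the same in all 20 alternatives. With 40 genes called by edgeR in all, no filter gave 104, library totals without TMM 66, DESeq2 1252, 3 groups fitted 98, M6 and NI1 left out 1413, DESeq2 without both 2992, and leaving out 1 library 6 (NI3) to 1280 (NI1). Members called were 0 at first, 1 by DESeq2, 1 without M6 and NI1, 4 by DESeq2 without both, and 0 to 1 with 1 library left out. Other direct targets called were 0 at first, 1 with no filter, 6 by DESeq2, 7 without both libraries, 9 by DESeq2 without both, and 0 to 7 with 1 left out. In functional against non-functional tumors 1 gene was called with no filter and 111 by DESeq2. The causes were not tested. M1 to M3 share replicate numbers with NI1 to NI3. Same-numbered libraries deviated with correlations of -0.052, 0.03 and -0.159, and differently numbered ones with -0.115 to 0.177. With 3 libraries in each group, such correlations cannot tell whether same-numbered libraries share more than a number. With the replicate block 1 member was called, Eda2r, at a log2 fold change of 4.55 (adjusted p = 0.0426 by edgeR), and 40 genes in all. No islet library shares a number with M4, M5 or M6, so that fit set only M1 to M3 against NI1 to NI3. The low Eda2r level of M6 did not enter it.

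Signs turned for 5 genes in differences that did not pass the threshold. In tumors against islets Pmaip1 ranged from -0.81 to 0.039 over all alternatives (0.039 without NI2). In functional against non-functional tumors Trp53 was 0.22 with library totals and 0.023 without M6 and NI1, Bbc3 was 0.24 with library totals, Pmaip1 was 0.056 with library totals and 0.18 by limma-voom, and Phlda3 was -0.29 without M6 and NI1. With 1 library left out, Trp53 ranged from -0.21 to 0.061, Bax from -0.64 to 0.19, Bbc3 from -0.27 to 0.26, Pmaip1 from -0.96 to 0.76 and Phlda3 from -0.28 to 0.33. Library totals moved the median of all genes to 0.245 in tumors against islets and 0.322 between tumor groups. Of the other alternatives only no filter, at 0.177 in tumors against islets, moved it by over 0.1. At 3 counts per library, levels under 0.0424 to 0.119 CPM are not resolved, which limits Trp73.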
